A study of Rattus norvegicus with 30 samples.

Results

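The 36 genes described here cover the synthesis, uptake and efflux of cholesterol, out of 32883 rat genes measured by RNA-Seq in cortical neuron cultures. They were chosen by gene symbol and read in steps, with 20 synthesis enzymes, 7 genes of uptake and storage, and 9 genes of efflux and clearance, and each of the 36 symbols had a row in the table. Cultures prepared from the cortex of Sprague Dawley rat embryos received AAV9 at day in vitro (DIV) 5, and RNA was taken 6, 12 or 19 d later. The 3K groups received AAV9 with human α-synuclein carrying an amplified form of a familial Parkinson's disease mutation (αSyn 3K), and the EV groups received AAV9 made from the same entry vector without an insert. Each treatment and day had 5 libraries, 30 in all. The CAG promoter that drove αSyn 3K is active in many cell types, and the title of every library also contains the term PBS, which was not explained in the sources used here.

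In brain, cholesterol is made almost entirely within the tissue, because lipoproteins of the blood hardly cross the blood-brain barrier. Acetyl-CoA is built into mevalonate, then into isoprenoids, squalene and lanosterol, and lanosterol is trimmed to cholesterol. Cells also take up cholesterol in lipoproteins and free it in lysosomes, store it as esters, and release it to lipoproteins through ABC transporters or, in neurons, after hydroxylation. Low sterol in the endoplasmic reticulum lets SREBP-2 raise the enzymes of synthesis, and oxysterols acting on liver X receptors (LXR) raise efflux genes.

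Values are normalized counts, which are read counts per gene divided by a size factor for each library. Between 4747019 and 7035869 whole reads fell on genes in a library (median 6000988). At each day the αSyn 3K vector separated all 3K libraries from all EV libraries, and at 19 d it had 24755 ± 2376 in 3K against 211 ± 32.9 in EV (SD, n = 5 each). Neuron, astrocyte and oligodendrocyte lineage markers were all abundant, so the cultures were mixed. In these bulk samples fewer cells of a type cannot be told apart from less RNA per cell. The summed normalized count of 8 oligodendrocyte lineage markers averaged 5488 at 6 d, 7630 at 12 d and 5824 at 19 d in EV. In 3K at 19 d it averaged 5781. The summed normalized count of 5 microglial markers was at most 3.36 in any library, and the endothelial markers Cldn5 and Cdh5 had no read in any library. The mitochondrial share of reads at 19 d was 4.78% ± 0.297 in 3K against 4.21% ± 0.276 in EV (SD, n = 5 each). The sources used here do not say whether the 5 libraries of a group came from separate cultures, so p-values may cover technical spread alone.

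Of the 36 genes, 35 were tested among 12911 genes with limma on log2(normalized count + 1), with p-values adjusted over all genes and called at an adjusted p under 0.05. Nr1h3, which encodes LXRα, was not tested, because it had between 0 and 4 reads per library, 35 reads over all libraries, and none in 11 of 30. After 6 d no cholesterol gene was called, while over all genes 0.0852% were lower and 0.139% were higher in 3K. After 12 d none was called either, against 0.256% of all genes lower and 0.178% higher. With limma, 2 of the 35 genes had an unadjusted p under 0.05 at 6 d and 6 at 12 d, beside 908 and 1063 of all 12911 genes tested. edgeR and DESeq2 also called 0 at both days, with 2 and 6 genes at an unadjusted p under 0.05 by edgeR and 1 and 4 by DESeq2. After 19 d, 13 genes were lower in 3K and 1 was higher, against 4.08% and 3.78% of all genes, and edgeR and DESeq2 each called 14 lower and 1 higher.

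All 13 lower genes were among the 20 synthesis enzymes, whose median log2 fold change at 19 d was −0.29, beside −0.0031 over all genes tested. None of the 7 uptake and storage genes was called, and their median was −0.01. Of 8 efflux and clearance genes tested, only Abca1 was called and it was higher, with a median of −0.0057 for the step. At 6 and 12 d the medians of the synthesis enzymes were −0.02 and −0.02. The plot of fold changes shows these 13 enzymes below 0 at 19 d, while Pmvk, Hsd17b7, Ggps1 and Lbr lay between −0.03 and 0.07.

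**Figure D1:**
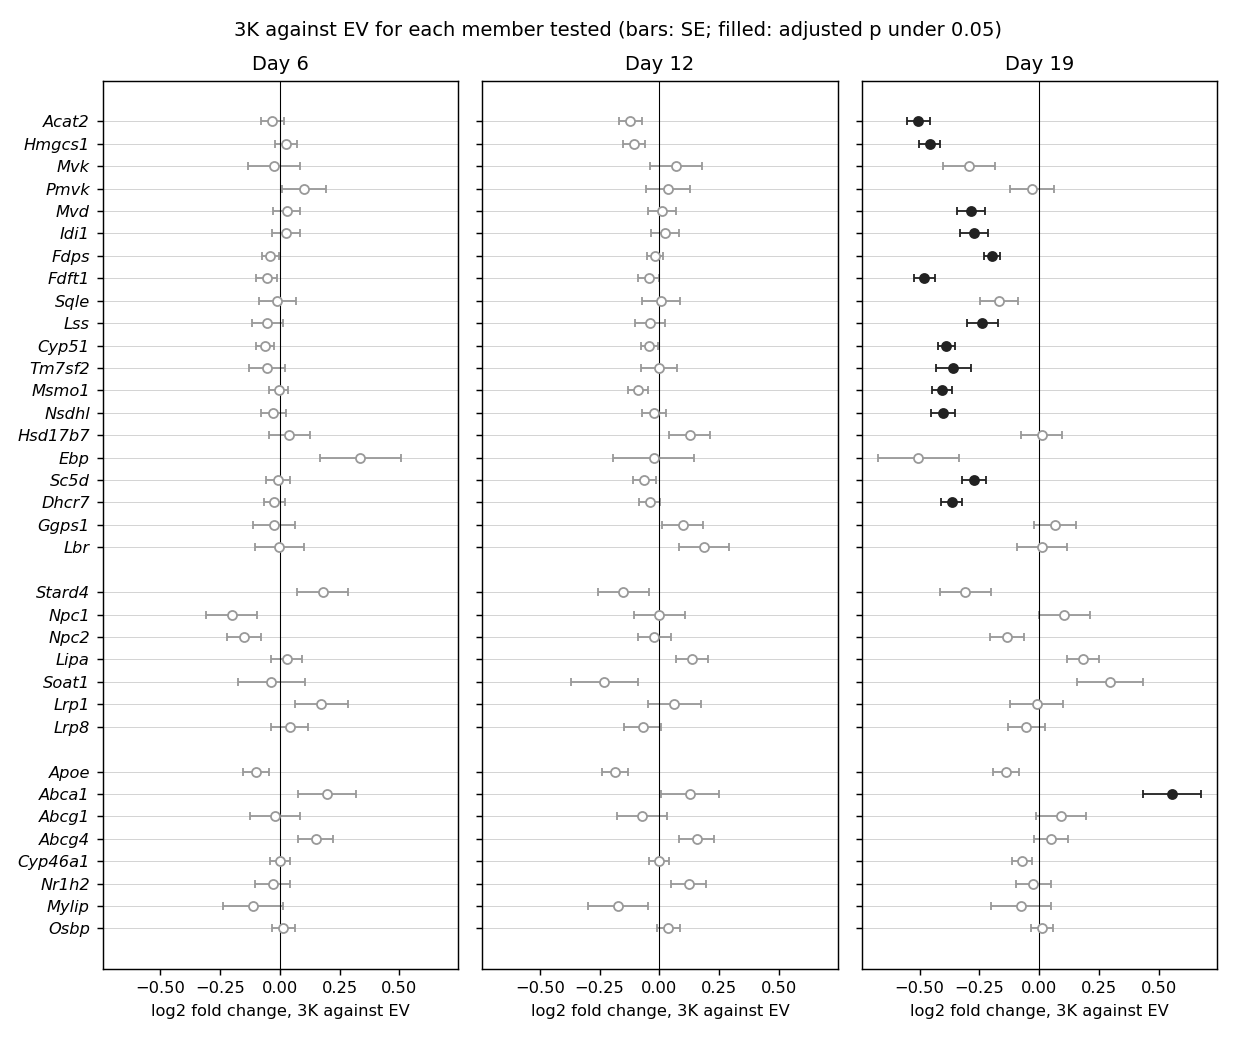
log2 fold change of 3K against EV (x axis, log2 scale; points, limma estimates; bars, SE) for the 35 cholesterol genes tested (y axis, ordered as synthesis, uptake and storage, efflux and clearance), with a panel for each day. Filled points had an adjusted p under 0.05, and they are 13 synthesis enzymes and Abca1, all at 19 d.

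The spread between libraries was small for most enzymes. Every 3K library lay below every EV library of the same day for 1 synthesis enzyme at 6 d, 2 at 12 d and 10 at 19 d. In none did every 3K library lie above every EV library. Over all genes tested, every 3K library lay below in 0.527%, 1.57% and 3.56% at these days, and above in 0.767%, 1.05% and 3.1%. The 10 enzymes at 19 d were Acat2, Hmgcs1, Fdps, Fdft1, Cyp51, Tm7sf2, Msmo1, Nsdhl, Sc5d and Dhcr7. Among the 3K libraries at 19 d, replicate 4 stood apart, being the highest for 15 of the 20 enzymes. Its αSyn 3K vector count of 23826 lay within the range of the other 3K libraries at that day, 22901 to 28883, and the cause of its higher values was not tested.

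At the entry of the pathway, Acat2 encodes the cytosolic thiolase that joins acetyl-CoA units, and Hmgcs1 encodes the synthase of HMG-CoA. At 19 d Acat2 was at 457, 446, 463, 495 and 466 in the EV libraries and at 327, 293, 342, 365 and 314 in the 3K libraries. The groups did not overlap, and 3K held 70.5% of the EV mean (log2 fold change −0.51 ± 0.05 SE, limma adjusted p = 6.4e-09). Acat2 was also lower in every 3K library at 12 d, with 1171 ± 34.3 in 3K against 1274 ± 52.1 in EV (SD, n = 5 each), but that difference did not pass the test (limma adjusted p = 0.41). Hmgcs1 at 19 d was at 4992, 5090, 5086, 5302 and 4802 in EV and at 3592, 3588, 3422, 4379 and 3487 in 3K. Here 4 of the 3K libraries lay close together and replicate 4 lay between them and EV. The log2 fold change was −0.46 ± 0.04 SE (limma adjusted p = 1.4e-08). At 12 d Hmgcs1 did not overlap either, with 7600 ± 81.3 in 3K against 8180 ± 229 in EV (SD, n = 5 each) (limma adjusted p = 0.49).

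Mevalonate is next phosphorylated and turned into isoprenoids by Mvk, Pmvk, Mvd and Idi1. Mvd, which makes isopentenyl diphosphate, was lower in 3K at 19 d, with 312 ± 24.7 against 380 ± 27.9 in EV (SD, n = 5 each) (log2 fold change −0.28, limma adjusted p = 0.0014). Idi1, the isopentenyl diphosphate isomerase, was lower too, with 422 ± 42.7 against 508 ± 27.7 in EV (SD, n = 5 each; log2 fold change −0.27, limma adjusted p = 0.0021). Their groups overlapped, with 3 of 5 and 4 of 5 3K libraries below every EV library. The kinases Mvk and Pmvk did not pass the test. Mvk had a log2 fold change of −0.29 with a 95% interval from −0.51 to −0.07 (limma adjusted p = 0.095), and Pmvk had −0.03 with an interval from −0.22 to 0.16. Without replicate 4 of 3K at 19 d, Mvk was called, at −0.42 (limma adjusted p = 0.0041).

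Fdps makes farnesyl diphosphate, which also feeds protein prenylation, and Fdft1 is squalene synthase, which commits it to sterols. Fdps at 19 d was at 1766, 1803, 1918, 1809 and 1908 in EV and at 1607, 1593, 1592, 1758 and 1486 in 3K. The groups did not overlap, with a small log2 fold change of −0.20 ± 0.03 SE (limma adjusted p = 0.00024). Fdft1 at 19 d was at 1357, 1370, 1425, 1503 and 1428 in EV and at 970, 964, 976, 1200 and 979 in 3K. As for Hmgcs1, replicate 4 was the high 3K library, and still lay below every EV library. Fdft1 held 71.9% of the EV mean in 3K (log2 fold change −0.48 ± 0.04 SE, limma adjusted p = 3.6e-09), and without replicate 4 the fold change was −0.54. Ggps1, on the branch to geranylgeranyl diphosphate for protein prenylation, was not called (log2 fold change 0.07, 95% interval −0.11 to 0.24).

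Squalene is epoxidized by Sqle and closed to lanosterol by Lss. Sqle was not called at 19 d, with 1423 ± 209 in 3K against 1586 ± 78.9 in EV (SD, n = 5 each) (log2 fold change −0.17, 95% interval −0.33 to −0.01, limma adjusted p = 0.21). Its highest 3K library lay above every EV library, while the other 4 lay below every EV library. Without replicate 4 of 3K, Sqle was called, at −0.24 (limma adjusted p = 0.033). Lss was lower in 3K, with 278 ± 38 against 326 ± 18.7 in EV (SD, n = 5 each; log2 fold change −0.24, limma adjusted p = 0.016). Its call rested on single libraries, and was lost without EV replicate 4 (limma adjusted p = 0.057), 3K replicate 2 (0.073) or 3K replicate 5 (0.054).

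Lanosterol is trimmed by Cyp51, the sterol demethylase, by the sterol reductases Tm7sf2 and Lbr, and by Msmo1, Nsdhl and Hsd17b7, which remove methyl groups. Cyp51 at 19 d was at 2133, 1969, 2252, 2205 and 2258 in EV and at 1604, 1546, 1658, 1747 and 1703 in 3K. No 3K library reached the lowest EV library, and 3K held 76.4% of the EV mean (log2 fold change −0.39 ± 0.04 SE, limma adjusted p = 5.2e-09). Cyp51 was the 1 enzyme without overlap at 6 d, with 4605 ± 79.6 in 3K against 4808 ± 83.2 in EV (SD, n = 5 each), a log2 fold change of −0.06 that did not pass the test (limma adjusted p = 0.82). Msmo1 at 19 d was at 1767, 1521, 1798, 1729 and 1665 in EV and at 1291, 1306, 1259, 1325 and 1209 in 3K. The 3K libraries of Msmo1 were tightly grouped below all EV libraries (log2 fold change −0.41 ± 0.04 SE, limma adjusted p = 3.4e-08).

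Nsdhl encodes the sterol dehydrogenase that acts after Msmo1. Its levels at 19 d were 556, 553, 581, 590 and 539 in EV and 424, 402, 381, 479 and 451 in 3K. All 3K libraries were below EV, at 75.8% of the EV mean (log2 fold change −0.40 ± 0.05 SE, limma adjusted p = 1.8e-06). Of the sterol reductases, Tm7sf2 was lower in 3K, with 226 ± 24.8 against 289 ± 24.9 in EV (SD, n = 5 each; log2 fold change −0.36, limma adjusted p = 0.0019). Lbr, which is also a lamin B receptor of the nuclear envelope, was not called, with a log2 fold change of 0.01 and a 95% interval from −0.20 to 0.23. Hsd17b7, the ketoreductase of the same demethylation, was not called either, with 152 ± 17.9 in 3K against 151 ± 16.3 in EV (SD, n = 5 each) (95% interval −0.16 to 0.18).

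The last steps are carried out by Ebp, Sc5d and Dhcr7, which shift and reduce double bonds of the sterol. Dhcr7, a reductase that can yield cholesterol, was at 796, 826, 852, 850 and 832 in EV and at 679, 603, 609, 742 and 605 in 3K at 19 d. The groups did not overlap, and replicate 4 was again the highest 3K library (log2 fold change −0.36 ± 0.04 SE, limma adjusted p = 7e-07). Sc5d, the desaturase before it, was lower in 3K, with 560 ± 14.9 against 678 ± 57.9 in EV (SD, n = 5 each; log2 fold change −0.27, limma adjusted p = 0.00046). Ebp, the sterol isomerase, had fewer reads and a wide spread, with 38.3 ± 6.58 in 3K against 56.4 ± 18.6 in EV (SD, n = 5 each). Its log2 fold change of −0.51 did not pass the test with limma (adjusted p = 0.061) and did with edgeR (0.049) and DESeq2 (0.038).

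**Figure D2:**
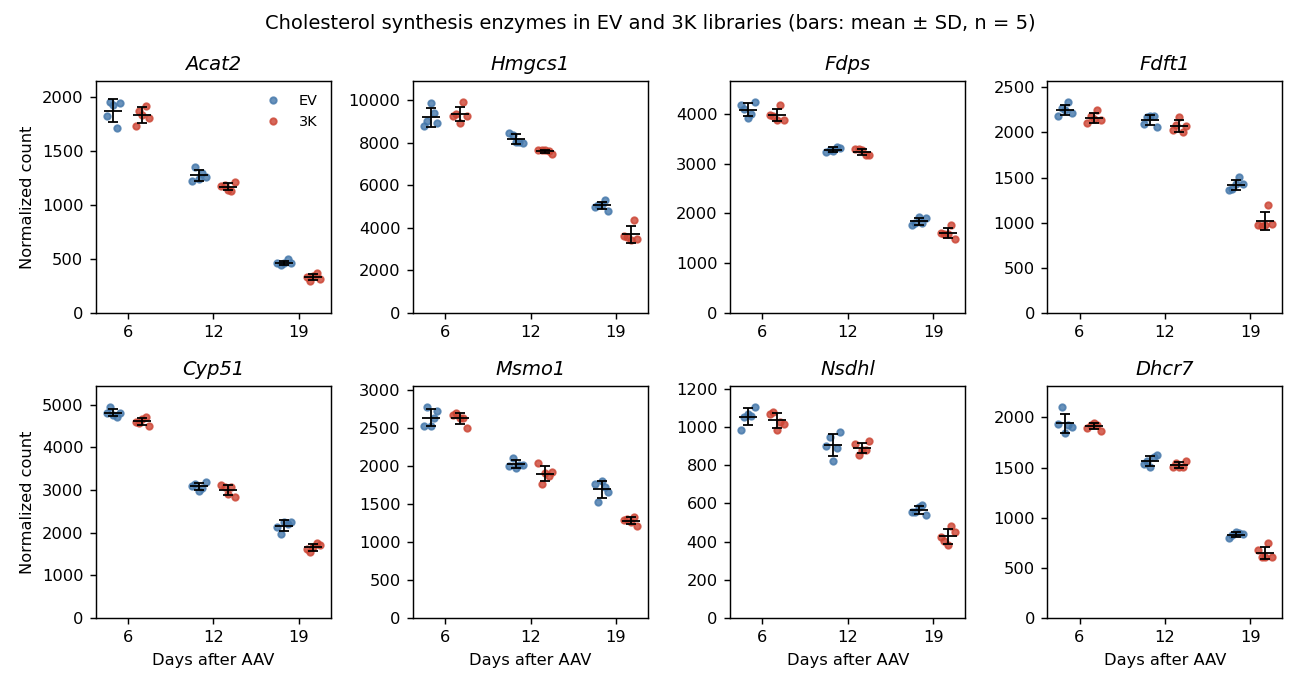
Normalized counts (y axis, from 0) of 8 synthesis enzymes against days after AAV (x axis), with 5 EV (blue) and 5 3K (red) libraries per day and the mean ± SD in black. At 19 d all 3K libraries lie below all EV libraries in each of the 8 panels, while in both treatments the level falls from 6 to 19 d.

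Promoters of the enzymes are shown for the bases that members share, and the part of these bases in the calls was not tested. RefSeq promoters (build GRCr8, 250 bases before to 50 after the start) were found for 30 of the 36 genes. Promoters of Pmvk, Fdft1, Sqle, Stard4, Lrp8 and Abcg1 were not analysed here. The 3 stretches printed here hold the 250 bases before the start of Hmgcs1 (chr2:53382054-53382303, plus strand), Nsdhl (chrX:155817110-155817359, plus strand) and Hsd17b7 (chr13:84722755-84723004, minus strand), written 5′ to 3′ on the strand of the gene. Capitals mark CCAAT on either strand, written as ATTGG where it lies on the other strand. Hmgcs1 and Nsdhl were lower in 3K at 19 d, and Hsd17b7 was not called.
Hmgcs1: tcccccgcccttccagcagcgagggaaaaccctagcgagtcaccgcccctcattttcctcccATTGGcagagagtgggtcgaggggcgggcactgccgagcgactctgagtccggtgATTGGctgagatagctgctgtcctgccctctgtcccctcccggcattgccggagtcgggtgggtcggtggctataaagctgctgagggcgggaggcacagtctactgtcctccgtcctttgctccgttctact
Nsdhl: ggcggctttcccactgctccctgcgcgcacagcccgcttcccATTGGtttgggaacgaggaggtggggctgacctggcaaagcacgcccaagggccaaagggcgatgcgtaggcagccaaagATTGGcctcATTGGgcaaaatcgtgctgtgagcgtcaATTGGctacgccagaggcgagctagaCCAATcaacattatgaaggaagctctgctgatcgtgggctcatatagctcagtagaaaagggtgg
Hsd17b7: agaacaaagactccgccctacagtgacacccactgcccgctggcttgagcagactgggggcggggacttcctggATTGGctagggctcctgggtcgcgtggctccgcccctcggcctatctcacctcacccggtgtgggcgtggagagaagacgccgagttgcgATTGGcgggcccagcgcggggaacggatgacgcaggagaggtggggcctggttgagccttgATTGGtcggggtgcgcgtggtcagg

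Hmgcs1 held CCAAT at 2 places, Nsdhl at 5 and Hsd17b7 at 3. Over both strands and the whole window, CCAAT was found in 14 of 17 synthesis promoters (82.4%), in 4 of 5 of uptake and storage, and in 2 of 8 of efflux and clearance, beside 37.7% of 27457 rat promoters of the same length. It was in 5 of 5 promoters of enzymes that were not called at 19 d and in 9 of 12 of those that were lower. GGGCGG, the GC box, was in 82.4% of the synthesis promoters, in 4 of 5 of uptake and storage, and in 4 of 8 of efflux and clearance, beside 34.9% of all promoters. It was in 4 of 5 promoters of enzymes not called at 19 d and in 10 of 12 of those that were lower. CACGTG, an E-box, was in 5.88% of the synthesis promoters and 6.65% of all promoters. The sterol regulatory element searched as TCACNCCAC was in 0 of the 17 synthesis promoters and in 1.13% of all promoters, and no other spelling of it was searched. The LXR repeat DR4, searched as 2 exact copies of AGGTCA with 4 bases between them, was in 0 of the members' promoters. It was in 1 of 27457 promoters (0.00364%), and no other spelling of it was searched. The count of 0 therefore does not show that the members, Abca1 among them, lack such a repeat. CCAAT read on the other strand can share bases with GGGCGG, and such bases were counted for both. The 27457 promoters were not limited to genes tested here, so the shares are not matched for expression. These matches describe letters of the window only.

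The difference between 3K and EV was itself compared between days. From 12 to 19 d the log2 fold change became more negative in 7 cholesterol genes and more positive in 0, while over all genes 0.209% became more negative and 0.333% more positive. The 7 were Acat2, Hmgcs1, Fdft1, Cyp51, Msmo1, Nsdhl and Dhcr7, with changes between −0.44 for Fdft1 (limma adjusted p = 0.00032) and −0.32 for Msmo1 (limma adjusted p = 0.0068). Without replicate 4 of 3K at 19 d the count was 11. From 6 to 19 d the difference became more negative in 9 genes, these 7 with Mvd and Sc5d, and more positive in 0, against 0.775% and 0.736% of all genes. For Abca1 the change from 12 to 19 d was 0.43 and did not pass the test (limma adjusted p = 0.38). A difference in the response of Abca1 between days was therefore not shown.

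Enzymes of synthesis fell with the age of the culture in EV as well. From 6 to 12 d in EV, 16 of 20 enzymes fell and 0 rose, beside 21.2% and 23.3% of all genes. From 12 to 19 d, 19 fell and 0 rose, beside 21.7% and 23.6%. Between 6 and 19 d, 19 fell, all but Ebp, and 0 rose, beside 32.2% and 32.9%, with a median log2 fold change of −0.99 over the 20 enzymes. Acat2 fell furthest in EV, from 1878 ± 103 (SD, n = 5) to 465 ± 18 (SD, n = 5), which left 24.8% of its level at 6 d (log2 fold change −2.01 ± 0.05 SE). Idi1 was left with 29.7%, Lss with 30.8%, Hsd17b7 with 33.6% and Mvd with 37.4%. Pmvk kept 77.4%, Sc5d 69.6% and Msmo1 64.2%, and Ebp was at 56.9 and 56.4 (limma adjusted p = 0.85). Of 8 oligodendrocyte lineage markers in EV, 0 fell and 6 rose from 6 to 12 d, beside 21.2% and 23.3% of all genes. From 12 to 19 d, 6 of these markers fell and 0 rose, beside 21.7% and 23.6%, with a median log2 fold change of −0.65. The part of this lineage in the levels of the enzymes was not tested.

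The 9 enzymes whose difference became more negative between 6 and 19 d kept, by that choice, a smaller share of their level in 3K than in EV. Acat2 at 19 d was at 17.9% of its level at 6 d in 3K and at 24.8% in EV, Hmgcs1 at 39.4% and 54.9%, and Fdft1 at 47% and 63%. Among enzymes outside the 9, Ebp was at 54% in 3K and 99% in EV, Tm7sf2 at 35.2% and 43.2%, and Idi1 at 24.2% and 29.7%. Hsd17b7 was at 32.9% and 33.6%, and the share was higher in 3K for Ggps1 (67.6% and 63.3%) and Lbr (61.3% and 59.7%). The mean log2 level of the 20 enzymes relative to EV at 6 d was −0.29 ± 0.04 in EV against −0.30 ± 0.03 in 3K (SD, n = 5 each) at 12 d. At 19 d it was −1.09, −1.04, −1.01, −0.998 and −1.01 in EV and −1.28, −1.35, −1.36, −1.12 and −1.41 in 3K. The groups did not overlap at 19 d, and replicate 4 was the 3K library nearest to EV. The enzymes also varied together within groups. Over deviations from the group mean in 30 libraries, Pearson's r between 2 enzymes had a median of 0.29 (190 pairs), against 0.0012 between all pairs of 7998 genes with a mean of at least 100. These genes share their libraries and size factors. The mean level of the enzymes spread most in 3K at 19 d (SD 0.11, against 0.03 to 0.05 in the other groups), where replicate 4 stood apart. The correlation without that library was not computed. Sc5d alone had a negative median r with the other enzymes, −0.11, and enzymes and efflux genes had a median r of −0.10 (160 pairs).

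**Figure D3:**
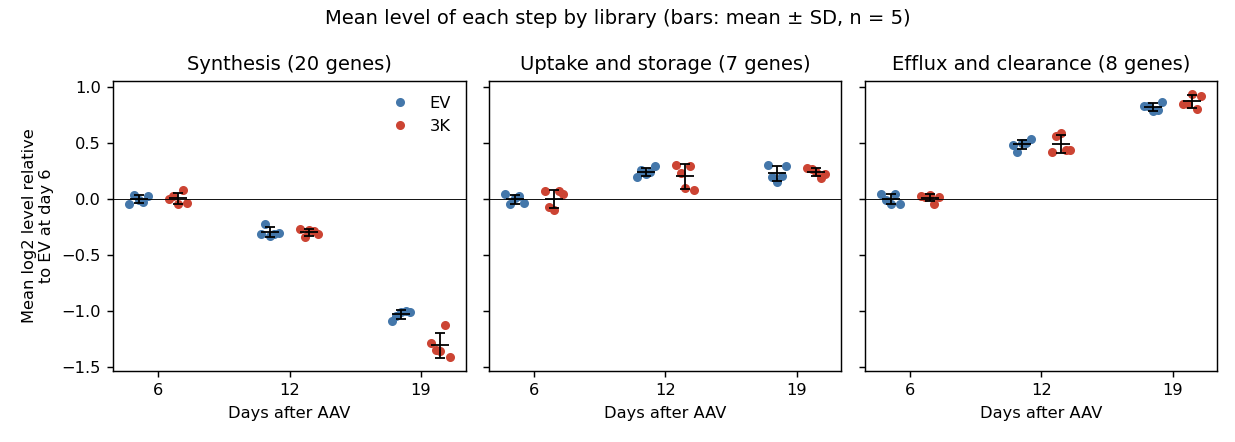
Mean log2 level of the genes of each step in each library, relative to the mean of EV at 6 d (y axis, log2 scale), against days after AAV (x axis), for EV (blue) and 3K (red), with mean ± SD in black (n = 5). Synthesis falls to −1.03 in EV and −1.31 in 3K at 19 d, while the groups overlap for uptake and storage and for efflux and clearance.

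Genes of uptake and storage did not pass the test at any day. Stard4 encodes a soluble carrier that moves cholesterol between membranes. Its levels at 19 d were 142, 142, 125, 136 and 160 in EV and 108, 132, 105, 148 and 83.9 in 3K. The groups overlapped, with 3 of 5 3K libraries below every EV library (log2 fold change −0.31 ± 0.11 SE, 95% interval −0.53 to −0.09, limma adjusted p = 0.072). The call was gained without 3K replicate 2 (limma adjusted p = 0.041) or 3K replicate 4 (0.0096). Stard4 was the 1 gene of the step besides Lrp8 that fell from 6 to 19 d in EV, from 217 ± 13.7 (SD, n = 5) to 141 ± 12.8 (SD, n = 5; limma adjusted p = 6.3e-06).

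Lipa encodes the lysosomal acid lipase that frees cholesterol from the esters of lipoproteins. At 19 d it was at 165, 166, 181, 160 and 177 in EV and at 222, 202, 172, 175 and 198 in 3K. The groups overlapped with 3K on the higher side (log2 fold change 0.18 ± 0.07 SE, limma adjusted p = 0.08), and the call was gained without 3K replicate 3 (limma adjusted p = 0.037) or 3K replicate 4 (0.038). Soat1 encodes the enzyme that esterifies cholesterol for storage. It was at 131, 107, 94.3, 117 and 101 in EV and at 128, 125, 160, 117 and 148 in 3K. Its log2 fold change of 0.30 ± 0.14 SE did not pass the test (limma adjusted p = 0.22).

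Of the lysosomal exporters, Npc2 had a log2 fold change of −0.13 (95% interval −0.28 to 0.01) and Npc1 of 0.11 (95% interval −0.11 to 0.32) at 19 d. The apolipoprotein E receptors Lrp1 and Lrp8 were at −0.01 (95% interval −0.24 to 0.22) and −0.05 (95% interval −0.21 to 0.11). With age in EV, 4 of 7 genes of the step rose between 6 and 19 d, namely Npc1, Npc2, Soat1 and Lrp1, and 2 fell, beside 32.9% and 32.2% of all genes. Npc2 rose most, from 429 to 807 (log2 fold change 0.92, limma adjusted p = 5.2e-13). From 6 to 12 d, 3 of 7 genes rose and 0 fell, beside 23.3% and 21.2% of all genes. From 12 to 19 d, 1 rose and 3 fell, beside 23.6% and 21.7%.

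Abca1, the transporter that loads cholesterol onto apolipoproteins and a known LXR target, was the 1 cholesterol gene that was higher in 3K. At 19 d it was at 603, 552, 535, 494 and 708 in EV and at 927, 763, 853, 617 and 1153 in 3K. The groups overlapped, since 3K replicate 4 lay within the EV range, while the other 4 3K libraries lay above every EV library. The mean was 863 ± 199 in 3K against 578 ± 82.3 in EV (SD, n = 5 each) (log2 fold change 0.56 ± 0.12 SE, limma adjusted p = 0.0031). The call held when each library was left out in turn. At 6 and 12 d the log2 fold changes were 0.20 (limma adjusted p = 0.84) and 0.13 (limma adjusted p = 0.89).

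Apoe encodes apolipoprotein E, the main lipoprotein carrier of cholesterol in brain, made chiefly by astrocytes. Levels at 19 d were 47656, 50615, 46793, 48588 and 47158 in EV and 45714, 40883, 47411, 41304 and 43717 in 3K. The groups overlapped, with 4 of 5 3K libraries below every EV library (log2 fold change −0.14 ± 0.05 SE, 95% interval −0.25 to −0.03, limma adjusted p = 0.12). At 12 d Apoe was at 24066 ± 1122 in 3K against 27432 ± 1932 in EV (SD, n = 5 each) (log2 fold change −0.19, limma adjusted p = 0.18). The summed normalized count of 10 astrocyte markers at 12 d ranged from 14894 to 16302 in 3K and from 16652 to 17546 in EV. At 19 d the sums overlapped, from 31228 to 37194 in 3K and from 32426 to 37193 in EV. Of 9 markers tested, 3 were lower in 3K, Aldh1l1, S100b and Fgfr3, and 0 were higher, beside 4.08% and 3.78% of all genes. The 9 log2 fold changes ranged from −0.35 to 0.62, with Gfap highest (limma adjusted p = 0.063), and 6 were negative. The part of astrocytes in the Apoe values was not tested.

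Cyp46a1 encodes the neuronal hydroxylase through which cholesterol leaves the brain. At 19 d it was at 1547, 1638, 1516, 1517 and 1425 in EV and at 1466, 1552, 1487, 1440 and 1327 in 3K. The groups overlapped (log2 fold change −0.07 ± 0.04 SE, 95% interval −0.16 to 0.01, limma adjusted p = 0.34). The summed normalized count of 10 neuron markers at 19 d ranged from 25863 to 27394 in 3K and from 27956 to 29329 in EV. Of the 10, 2 were lower, Snap25 and Slc17a7, and 0 were higher, beside 4.08% and 3.78% of all genes. The 10 log2 fold changes ranged from −0.20 to 0.36, and 7 were negative. The part of neuron number in the lower synthesis enzymes was not tested.

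The other efflux genes were close to EV at 19 d, within the intervals given. The sterol exporters Abcg1 and Abcg4 had log2 fold changes of 0.09 (95% interval −0.12 to 0.30) and 0.05 (95% interval −0.10 to 0.20). Nr1h2, which encodes LXRβ, had −0.02 (95% interval −0.17 to 0.13). Mylip, an LXR target that marks lipoprotein receptors for degradation, had −0.07 (95% interval −0.33 to 0.18). Osbp, which carries sterols out of the endoplasmic reticulum, had 0.01 (95% interval −0.08 to 0.11).

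Efflux genes rose with age in EV. Between 6 and 19 d 7 of 8 rose and 0 fell, all but Osbp, beside 32.9% and 32.2% of all genes, with a median log2 fold change of 0.72. Apoe rose from 13230 ± 1139 (SD, n = 5) to 48162 ± 1528 (SD, n = 5), or to 364% of its level at 6 d. Abcg1 reached 273%, Abca1 244% and Cyp46a1 210%. From 6 to 12 d 5 rose and 0 fell, beside 23.3% and 21.2% of all genes, and from 12 to 19 d 4 rose and 0 fell, beside 23.6% and 21.7%. Astrocyte markers rose over the same days in EV, with 7 of 9 tested higher at 19 d than at 6 d and 0 lower, beside 32.9% and 32.2% of all genes. Their summed count went from between 10791 and 11724 to between 32426 and 37193. Their part in the rise of Apoe and the transporters was not tested.

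**Figure D4:**
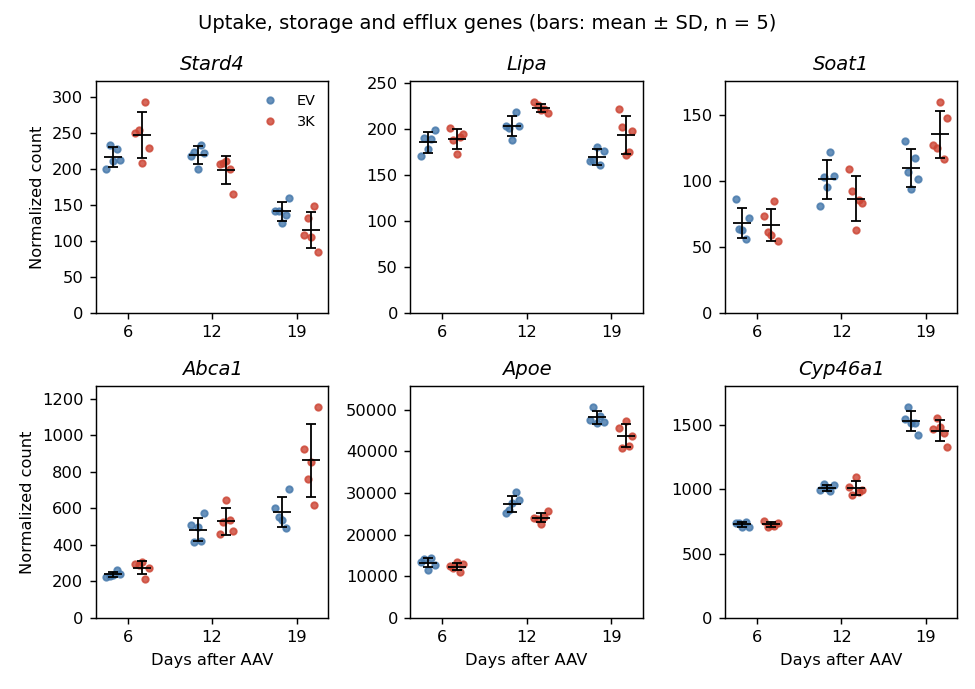
Normalized counts (y axis, from 0) of 3 genes of uptake and storage (top) and 3 of efflux and clearance (bottom) against days after AAV (x axis), with 5 EV (blue) and 5 3K (red) libraries per day and the mean ± SD in black. EV and 3K overlap at 19 d in all 6 panels, with Abca1 at 863 in 3K and 578 in EV on average.

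Genes that sense and regulate sterols were counted from a list of 51 further genes of the pathway, of which 46 were tested. At 19 d 6 were lower in 3K and 0 higher, at 12 d none was called (4 at an unadjusted p under 0.05), and at 6 d 1 was lower, Lcat, a plasma enzyme that esterifies cholesterol and had few reads here. These counts stand beside 4.08% of all genes lower and 3.78% higher at 19 d, 0.256% and 0.178% at 12 d, and 0.0852% and 0.139% at 6 d. At 12 d, 1063 of all 12911 genes tested had an unadjusted p under 0.05 with limma. Of 7 listed genes that encode SREBP or act on it, 4 were among the 6, and Insig2 (log2 fold change 0.16, limma adjusted p = 0.41), Mbtps1 (−0.0097, 0.97) and Mbtps2 (−0.07, 0.70) were not called. Srebf2, which encodes SREBP-2, had 1866 ± 207 in 3K against 2265 ± 138 in EV (SD, n = 5 each) at 19 d (log2 fold change −0.28, limma adjusted p = 0.00077). Srebf1, which encodes the SREBP-1 proteins of fatty acid synthesis, had 2024 ± 130 in 3K against 2978 ± 239 in EV (SD, n = 5 each; log2 fold change −0.56, limma adjusted p = 9.6e-05). Its log2 fold change was −0.37 at 6 d (limma adjusted p = 0.09) and −0.37 at 12 d (0.055), neither called. The change of its difference from 12 to 19 d was not called either (limma adjusted p = 0.71). Scap, which escorts SREBP to the Golgi, had a log2 fold change of −0.15 (limma adjusted p = 0.034). Insig1, which retains it and is itself raised by SREBP, had −0.25 (limma adjusted p = 0.00025). Over age in EV, Insig1 fell to 52.1% of its level at 6 d by 19 d, whereas Srebf2 was at 116% and Srebf1 at 227%.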

How the data were processed

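Per the submitters' processing notes and the study's methods, the authors checked reads with FastQC and used STAR 2.5.2b to align them to Rnor_6.0 extended by the αSyn 3K vector, with RSEM 1.2.31 for counting. The signal values deposited by the authors are these counts after division by the DESeq2 size factor of the library. They cover 32883 genes and 2 vectors in 30 libraries. The table's heading speaks of all samples, so the factors may have been set with libraries not analysed here. All values (100%) were whole reads within 0.01 of a read, and reads were recovered for count tests. Reads are amplified cDNA and not independent molecules.

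Of 20634 genes with any read, 12911 reached a normalized count of 10 in 5 or more libraries and were tested. limma 3.58.1 (R 4.3.3) was fitted with trend to log2(normalized count + 1) over all 6 groups, with a mean per group, two-sided, and Benjamini-Hochberg adjustment over all genes tested at 0.05. Fold changes on this scale understate those of low genes. Members and lists were chosen with earlier results of these data known. Values in every library are given for the 8 synthesis genes and the 3 genes of each other step with the smallest adjusted p at 19 d. Of 51 further pathway genes, 49 had a row, and not all of them are named here. Alternatives were edgeR 4.0.16 (TMM, quasi-likelihood) and DESeq2 1.42.0 on whole reads, pseudocounts of 0.5 and 5, no filter, a minimum of 50, equal totals, equal upper quartiles, only the groups compared, a replicate block, leaving out each library, and, chosen after seeing the data, the mitochondrial share as a covariate. The procedure was tested on simulated data. Python 3.11.15 with numpy 2.4.6, pandas 2.3.3 and matplotlib 3.10.9 was used for summaries and plots.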

Additional observations from a re-analysis of the deposited data

Results flagged for a closer look

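In 12 of 210 groups of 5 libraries, 1 library lay far from the other 4 by Dixon's criterion, where chance gives about 1 in 20. In 3K at 19 d, replicate 4 was high for Hmgcs1 (4379, others 3422 to 3592) and for Fdft1 (1200, others 964 to 979), and replicate 2 was low for Lrp8 (366, others 402 to 412). In EV at 19 d, replicate 2 was low for Osbp (843, others 919 to 933). In 3K at 12 d, replicate 3 was high for Pmvk (244, others 195 to 208) and low for Npc2 (449, others 532 to 555), and replicate 5 was low for Stard4 (165, others 201 to 211). In EV at 12 d, replicate 2 was high for Msmo1 (2113, others 1979 to 2016) and replicate 3 low for Osbp (861, others 882 to 888). At 6 d, 3K replicate 4 was high for Lss (1126, others 985 to 1017), EV replicate 2 for Npc2 (515, others 396 to 417) and EV replicate 1 for Mylip (80.2, others 59.3 to 64.9).

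The log2 fold change of 3K against EV differed between days for 9 enzymes by limma's test of the difference. From 12 to 19 d it changed by −0.38 for Acat2 (limma adjusted p = 0.0046), −0.35 for Hmgcs1 (0.0046), −0.44 for Fdft1 (0.00032), −0.35 for Cyp51 (0.00032), −0.32 for Msmo1 (0.0068), −0.38 for Nsdhl (0.008) and −0.32 for Dhcr7 (0.0082). From 6 to 19 d it changed by −0.47 for Acat2 (limma adjusted p = 8.6e-05), −0.48 for Hmgcs1 (3.2e-05), −0.31 for Mvd (0.043), −0.43 for Fdft1 (0.0001), −0.33 for Cyp51 (0.00024), −0.40 for Msmo1 (0.00011), −0.38 for Nsdhl (0.003), −0.27 for Sc5d (0.048) and −0.34 for Dhcr7 (0.0017).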

How the results depend on the processing

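No direction of a called cholesterol gene reversed under any alternative. The count of synthesis enzymes lower at 19 d was 13, and 12 to 14 under the other settings. The 12 other than Lss were called in all 21 alternatives, as was Abca1. Lss was lost with only the groups compared (limma adjusted p = 0.14) and with the mitochondrial share as a covariate (0.076). With only the groups compared, 2 genes were lower at 12 d and 8 rose in EV from 12 to 19 d, and with the mitochondrial share 1 gene was lower at 12 d, 1 efflux gene was lower at 19 d (Apoe, −0.19, limma adjusted p = 0.022) and the uptake and storage median was 0.08. With equal totals, 2 genes were higher at 19 d, 1 of them of uptake and storage (Lipa, limma adjusted p = 0.047), and the calls over all genes were 631 higher and 376 lower, instead of 488 and 527, with a median log2 fold change of 0.02. In the replicate block, 1 uptake and storage gene was lower at 19 d (Stard4, limma adjusted p = 0.043) and Ebp was called (0.044). The sources do not say that equal numbers mark a shared culture or day. Deviations of libraries with the same number correlated between −0.01 and 0.04 at 6 d and between −0.12 and −0.01 at 12 d. At 19 d r was −0.01, 0.14, 0.06, 0.16 and 0.19 for replicates 1 to 5, above the r with every other number in 3 of 5, so that a pairing at that day was neither given by the design nor seen in all pairs.

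Leaving out each library gave 12 to 17 genes lower and 1 to 2 higher at 19 d, 0 to 1 lower and 0 to 1 higher of uptake and storage, and 7 to 11 and 7 to 12 genes with a more negative difference from 12 to 19 d and from 6 to 19 d. Ebp was called without EV replicate 1 (limma adjusted p = 0.042), EV replicate 3 (0.021) or 3K replicate 4 (0.044). With about 6000988 reads in a library, Nr1h3 had too few reads to be tested, and the causes of these shifts were not tested.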
